A study of Homo sapiens with 8 samples.

Results

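The PADI genes PADI2, PADI1, PADI3 and PADI4 lie side by side on human chromosome 1 and were examined through the H3K27ac peaks that overlap a 400 kb window around them (hg19, chromosome 1, 17.35 to 17.75 Mb). H3K27ac, acetylation of a lysine of a core histone, marks promoters and enhancers that are active. Of the 60669 regions obtained by merging the peaks of 4 libraries, 33 overlapped the window. These 33 regions are the members. The window was chosen because these same peak lists showed more acetylated regions there after CEBPB knockdown. Every difference between knockdown and control given here is therefore a description, and none was tested.

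All libraries came from A549, a long-established line of human lung adenocarcinoma cells with active NRF2, a regulator of the response to oxidative stress. The knockdown libraries came from cells transfected with CEBPB siRNA-1 (1 library) or CEBPB siRNA-2 (1 library), and the control libraries from cells transfected with a control siRNA (2 libraries, control 1 and control 2). CEBPB encodes a basic leucine zipper transcription factor. All cells were harvested 48 h after transfection, and no genotype, further drug or stimulus is named in the labels. The knockdown libraries received different siRNAs, so their spread includes any difference between the siRNAs. Whether the controls were separate cultures is not stated, so their spread may be technical.

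Peptidylarginine deiminases are calcium-dependent enzymes that convert arginine side chains of proteins into citrulline, which removes a positive charge. PADI1 and PADI3 are best known from the epidermis and hair follicle, where they act on filaggrin, trichohyalin and keratins. PADI2 is the most widely expressed family member and can modify histones. PADI4 is known from neutrophils, where it citrullinates histones during the release of chromatin traps. In human keratinocytes, an enhancer bound by AP-1 between PADI2 and PADI1 is known to contact the PADI3 promoter. In the order of RefSeq, SDHB, a subunit of mitochondrial succinate dehydrogenase, neighbours PADI2 on the outer side. PADI6, a deiminase of the oocyte and early embryo, follows PADI4.

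By the gene edges used here, PADI2 spans 17.393 to 17.446 Mb, PADI1 17.532 to 17.573 Mb, PADI3 17.576 to 17.611 Mb and PADI4 17.635 to 17.69 Mb, all on hg19. PADI2 is read on the minus strand and the other genes on the plus strand, so PADI2 and PADI1 start on either side of the same intergenic stretch of 86.0 kb. Of the 4 genes, 3 had a promoter entry in RefSeq, covering 250 bases before to 50 bases after the start on GRCh38.p14. The promoters shown are those of the 3 genes with such an entry, PADI2, PADI1 and PADI4. They were not chosen by their acetylation, and sequences under the peaks were not analysed here. No library had a peak at the 5′ edge of PADI2, PADI1 or PADI4 on hg19. Capitals mark matches, on either strand, to TTNNGCAA (C/EBP), TGANTCA (AP-1) or TGACNNNGC (the core of an antioxidant response element, the site type that NRF2 binds).
PADI2 (chr1:17119402-17119701, minus strand): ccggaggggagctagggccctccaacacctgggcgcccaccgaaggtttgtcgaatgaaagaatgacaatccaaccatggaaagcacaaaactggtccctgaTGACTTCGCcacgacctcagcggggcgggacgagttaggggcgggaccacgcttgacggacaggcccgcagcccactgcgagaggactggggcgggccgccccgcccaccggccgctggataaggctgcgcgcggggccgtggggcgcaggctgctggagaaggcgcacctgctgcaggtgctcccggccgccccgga
PADI1 (chr1:17204878-17205177, plus strand): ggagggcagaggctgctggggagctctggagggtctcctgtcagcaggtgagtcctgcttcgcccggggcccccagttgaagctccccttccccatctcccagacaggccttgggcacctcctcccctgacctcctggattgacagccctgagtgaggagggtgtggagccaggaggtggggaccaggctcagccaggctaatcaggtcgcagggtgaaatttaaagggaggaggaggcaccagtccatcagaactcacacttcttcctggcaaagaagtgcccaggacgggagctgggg
PADI4 (chr1:17307947-17308246, plus strand): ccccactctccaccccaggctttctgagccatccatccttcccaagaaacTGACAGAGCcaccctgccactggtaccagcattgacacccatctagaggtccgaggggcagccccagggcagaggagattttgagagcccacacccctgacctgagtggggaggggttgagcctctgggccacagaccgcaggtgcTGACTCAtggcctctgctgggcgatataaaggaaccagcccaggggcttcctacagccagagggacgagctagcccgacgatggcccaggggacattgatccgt
The PADI2 window held 1 match, TGACTTCGC, to the antioxidant response element core. The PADI4 window held the AP-1 match TGACTCA and the antioxidant response element core match TGACAGAGC, which do not overlap. No letters of the PADI1 window matched any of these motifs, and no C/EBP match was found in the PADI2 or PADI4 window. Among all 35116 RefSeq promoters of 300 bases, 10.5% held a C/EBP match, 7.71% an AP-1 match and 13.3% an antioxidant response element core match. An AP-1 match and a core match can share letters.

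The acetylated length over the PADI genes was larger in both knockdown libraries than in both controls. The window held 33 peaks under siRNA-1 and 31 under siRNA-2, against 15 in control 1 and 16 in control 2. Peaks with a −log10 q of 10 or more, where a higher −log10 q means a more certain call, numbered 16 under each siRNA, against 10 in control 1 and 11 in control 2. With every list cut to the same called length, siRNA-1 had 18 peaks and siRNA-2 had 31, against 14 in control 1 and 15 in control 2. The difference between the group means was thus 16.5 peaks as deposited, 5.5 at the stricter threshold and 10.0 at equal length. The length under peaks was 52.8 kb under siRNA-1 and 48.8 kb under siRNA-2, against 28.9 kb in control 1 and 27.5 kb in control 2. The knockdown libraries averaged 50.8 ± 2.86 kb and the controls 28.2 ± 0.984 kb (SD, n = 2 each), a ratio of 1.80. The groups did not overlap. Both knockdown libraries also exceeded both controls in 31.9% of the 400 kb tiles of the genome with a peak in all 4 libraries. The difference of 22.6 kb was larger than the spread within either group, but the window was chosen for this gain. Within the numbers of the labels, the knockdown library exceeded the control by 23.9 kb for number 1 and by 21.3 kb for number 2. With 2 libraries a group, the smallest exact permutation p is 0.333.

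Over all chromosomes, called length did not separate the groups, while both knockdown lists held more peaks than both control lists. Called length on chromosomes 1 to 22 and X was 70.4 Mb under siRNA-1 and 61.7 Mb under siRNA-2. It was 67.9 Mb in control 1 and 62.1 Mb in control 2. The lists held 47370 peaks under siRNA-1 and 48216 under siRNA-2, against 45537 in control 1 and 45651 in control 2. The ratio of the group means in peaks was 1.05 over the whole lists and 2.06 in the window. The window took 0.0750% of the called length under siRNA-1 and 0.0791% under siRNA-2, against 0.0426% in control 1 and 0.0443% in control 2. The lists carry no read counts, so sequencing depth is unknown, and a stretch without a peak is a stretch without a call. The genome was also divided into 400 kb tiles, of which 5131 had a peak in all 4 libraries. Called length was longer in both knockdown libraries than in both controls in 31.9% of these tiles, and longer with a ratio of at least 1.5 in 16.4%. The median ratio over the tiles was 1.03, and 1.7% of them had 5 or more gained regions. Since the window was picked from the same lists, nothing is read from its place among the tiles.

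**Figure D1:**
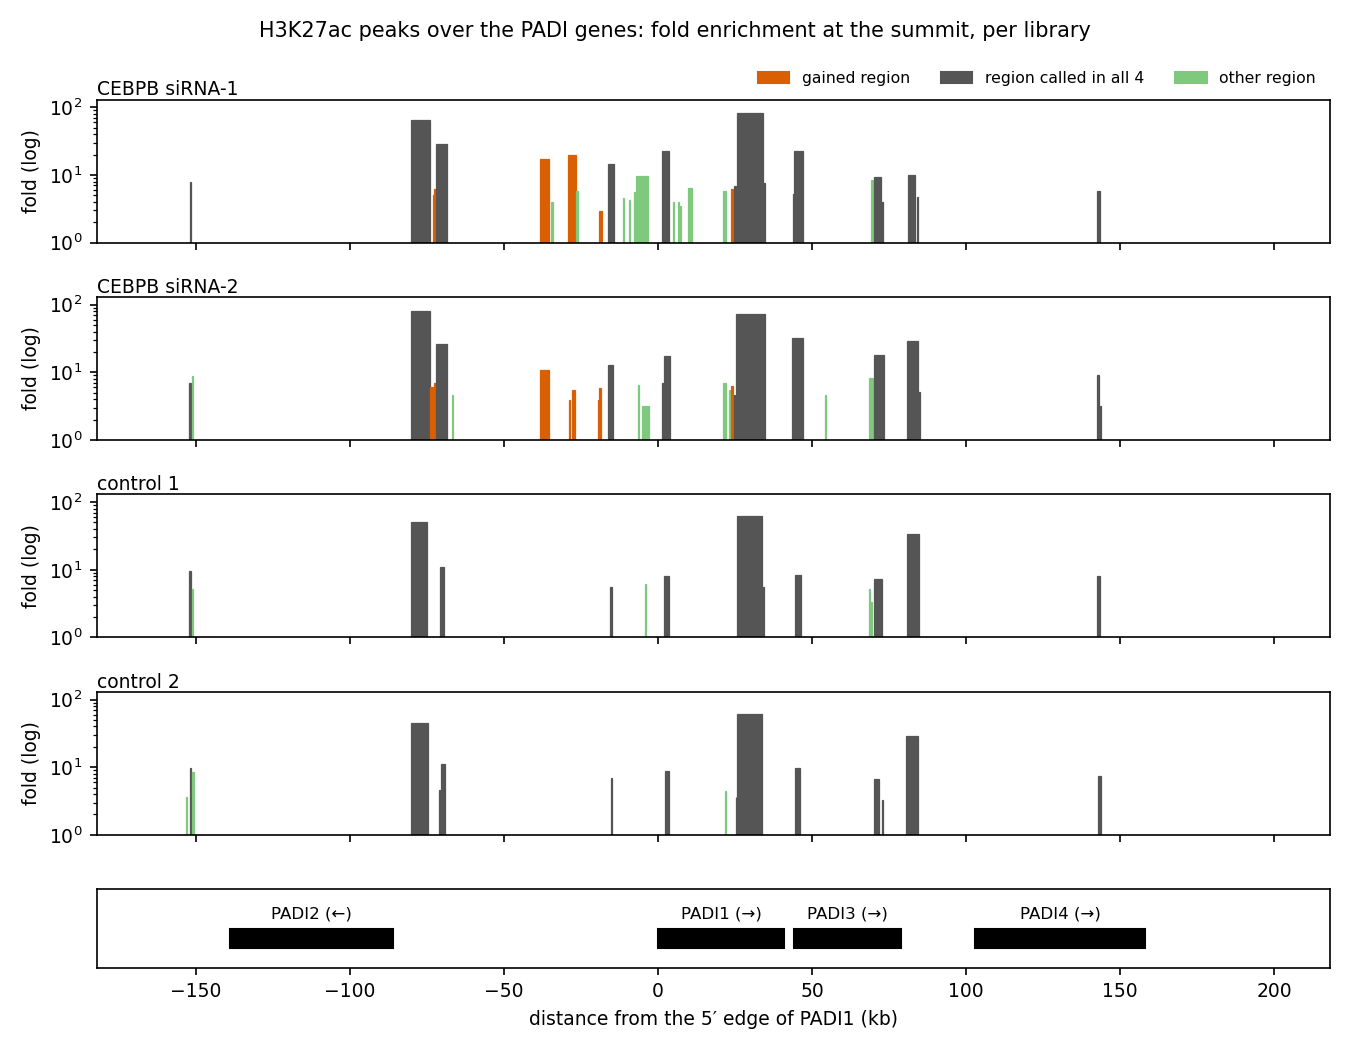
H3K27ac peaks across the window in each library: the x axis is the distance from the 5′ edge of PADI1 in kb, each block spans a peak, and its height is the fold enrichment at the summit on a log axis, on each library's own scale. Orange blocks, seen with both siRNAs and in neither control, lie at 5 sites between PADI2 and PADI1 and 1 site inside PADI1, while grey blocks, the 10 regions called in all 4 libraries, recur at the same places in every row.

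Regions called under both siRNAs and in neither control lay between PADI2 and PADI1 and inside PADI1. A region counts as gained where both knockdown libraries and neither control had a peak, as lost in the reverse case, and as kept where all 4 libraries had a peak. The window had 6 gained regions of 33, where 6.76% of all merged regions were gained. It had 0 lost regions, where 7.01% of all merged regions were lost, and 10 kept regions, where 39.8% were kept. The contrast behind these counts is the one that chose the window. A further 12 regions were called in 1 knockdown library and in no control. Of these, 9 were called under siRNA-1 only, 27.3% of the window against 13.1% of all merged regions, and 3 under siRNA-2 only, 9.09% against 7.98%. Control 2 alone called 1 region, 3.03% of the window against 4.70% of all merged regions, and control 1 alone called 0, against 7.78%. The remaining 4 regions were called in 3 libraries, 3 of them in both knockdown libraries and 1 control. The other 1 was called under siRNA-2 and in both controls, but not under siRNA-1. In all, 18 of the 33 regions were called in knockdown libraries only, 54.5% of the window against 27.8% of all merged regions. The 1 region called in controls only was 3.03% of the window, against 19.5% of all merged regions. The count of gained regions rests on both siRNAs being required. Leaving out siRNA-1 gave 15 gained regions and leaving out siRNA-2 gave 16, since a call with 1 siRNA is then enough.

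**Figure D2:**
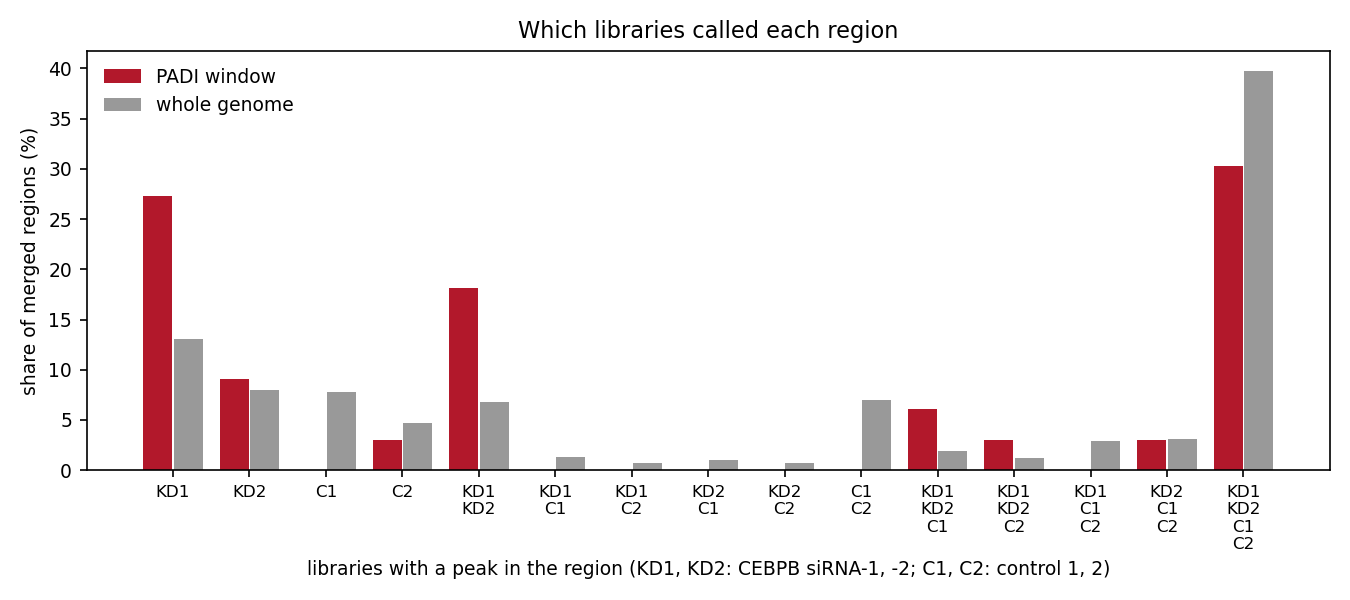
Share of merged regions, in percent, called in each combination of libraries, for the 33 regions of the PADI window (red) and all 60669 regions (grey). Regions called with both siRNAs only were 18.2% of the window against 6.76% of the genome, and the bar for both controls only is at 0 in the window.

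The 86.0 kb between the starts of PADI2 and PADI1 held most of the added acetylation. Its length under peaks was 26.0 kb under siRNA-1 and 20.2 kb under siRNA-2, against 8.05 kb in control 1 and 7.43 kb in control 2. Peak summits there numbered 14 under siRNA-1 and 13 under siRNA-2, compared to 4 in control 1 and 4 in control 2. The stretch averaged 23.1 ± 4.12 kb after knockdown and 7.73 ± 0.438 kb in controls (SD, n = 2 each), a ratio of 2.99. Both knockdown libraries shared 10.3 kb of called bases that neither control had. A further 7.31 kb was called under siRNA-1 alone and 1.35 kb under siRNA-2 alone. Of the bases called in both controls there, 99.1% were also called with both siRNAs, so the control peaks remained and calls were added beside and between them.

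Of the 6 gained regions, 5 lay in this stretch. The longest (chromosome 1, 17493544 to 17496748) was 37.0 kb upstream of the PADI1 edge and 18881 bp from the nearest region called in any control. It covered 3205 bp under siRNA-1 and 2610 bp under siRNA-2, with fold enrichments of 17.3 under siRNA-1 and 11.0 under siRNA-2 and no peak in either control. The summits of the knockdown libraries in it were 20 bp apart. Its peaks ranked at percentile 76.9 of the siRNA-1 list and 66.0 of the siRNA-2 list by −log10 q. It was the only gained region whose −log10 q was 10 or more in both knockdown libraries.

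Nearer to PADI1, at 27.9 kb upstream, a gained region (17502712 to 17505267) also had summits 20 bp apart. It covered 2556 bp at a fold enrichment of 19.4 under siRNA-1, and 1453 bp at 5.51 under siRNA-2. By −log10 q it stood at percentile 80.0 of the siRNA-1 list and 45.3 of the siRNA-2 list. A weaker gained region, 18.9 kb upstream of PADI1 (17512440 to 17513893), had fold enrichments of 2.94 under siRNA-1 and 5.88 under siRNA-2 and summits 712 bp apart. The other gained regions of the stretch lay on the PADI2 side, at 17458159 to 17459195 and at 17459343 to 17459880, in the gap between a pair of kept regions. The one nearer to PADI2 had fold enrichments of 5.05 under siRNA-1 and 6.11 under siRNA-2, and the other one 6.13 under siRNA-1 and 6.89 under siRNA-2. They lay 37 bp and 103 bp from the nearest kept region. The edges of that gap of 1862 bp were set by knockdown peaks. Control 1 had no call between 17457044 and 17461098, and control 2 none between 17457273 and 17460938. Whether these gained regions are separate from the longer kept regions beside them was not tested.

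The strongest region of the stretch was kept in every library and lay next to PADI2. The PADI2 gene body itself had 0 peaks in all 4 libraries. The nearest peak to its 5′ edge began 5.94 kb upstream under siRNA-1 and 5.80 kb under siRNA-2, against 5.80 kb in control 1 and 5.88 kb in control 2. That region (17451797 to 17458121) covered 6179 bp under siRNA-1 and 6199 bp under siRNA-2, against 5248 bp in control 1 and 5394 bp in control 2. Its fold enrichments were 64.2 under siRNA-1 and 82.1 under siRNA-2, against 51.2 in control 1 and 45.2 in control 2. Its summits were 21 bp apart between the knockdown libraries and 32 bp apart between the controls. The region was thus among the strongest of every list, at percentile 98.9 under siRNA-1 and 99.9 under siRNA-2, against 96.4 in control 1 and 96.2 in control 2. Fold enrichments are the authors' values against each library's own background and were not tested between lists.

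A second kept region further upstream of PADI2 (17459984 to 17463626) was longer after knockdown. It covered 3632 bp under siRNA-1 and 3422 bp under siRNA-2, against 1559 bp in control 1 and 1718 bp in control 2, a ratio of the means of 2.15. Fold enrichments in it were 28.5 under siRNA-1 and 25.9 under siRNA-2, against 11.2 in control 1 and 11.3 in control 2. The groups did not overlap in either measure. Of all kept regions of the genome, 26.9% were longer in both knockdown libraries than in both controls, and 29.5% had a higher fold enrichment.

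On the PADI1 side, a kept region 15.7 kb upstream of PADI1 (17515630 to 17517675) had the largest ratio of called length among the kept regions of the window, 3.51. It covered 2046 bp under siRNA-1 and 1700 bp under siRNA-2, against 754 bp in control 1 and 313 bp in control 2. Closer to the gene, a region at 17524727 to 17528953 was called in 3 libraries. It covered 4170 bp under siRNA-1 and 2537 bp under siRNA-2, against 484 bp in control 1 and no call in control 2. Fold enrichment in it was 9.56 under siRNA-1, but 6.47 under siRNA-2 was close to the 6.23 of control 1. The region's best summits in the knockdown libraries lay 2069 bp apart. The absence of a call in control 2 and a single short peak in control 1 keep it out of both the gained and the kept regions.

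**Figure D3:**
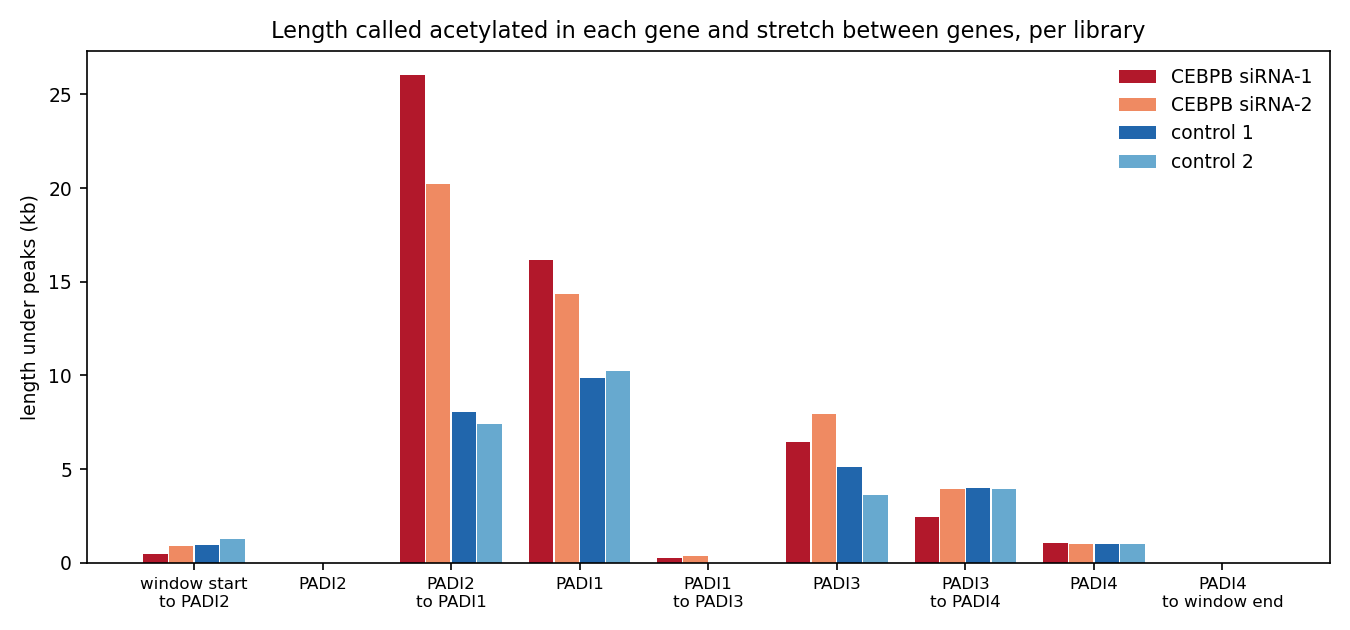
Length under peaks in kb, for each gene body and each stretch between the genes, with 1 bar per library (siRNA-1, siRNA-2, control 1, control 2 from left to right). Bars of both siRNAs stand above both controls between PADI2 and PADI1 (26.0 and 20.2 kb against 8.05 and 7.43 kb), in PADI1 and in PADI3, and are level with the controls in PADI4.

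PADI1 carried the longest acetylated region of the window, and its called length was larger with both siRNAs. The gene body had 16.2 kb under peaks under siRNA-1 and 14.4 kb under siRNA-2, against 9.86 kb in control 1 and 10.3 kb in control 2. These average 15.3 ± 1.29 kb after knockdown and 10.1 ± 0.280 kb in controls (SD, n = 2 each), a ratio of 1.52. All bases called in both controls within PADI1 were also called with both siRNAs, and 2.54 kb was called with both siRNAs and in neither control.

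No library had a peak at the PADI1 5′ edge itself. The nearest peak began 1.28 kb into the gene under siRNA-1 and 1.25 kb under siRNA-2, against 2.03 kb in control 1 and 2.13 kb in control 2. The gene edges are rounded to 1 kb, which bounds the precision of these distances but not their differences between libraries. The kept region there (17533250 to 17535907) covered 2334 bp under siRNA-1 and 2467 bp under siRNA-2, against 1394 bp in control 1 and 1542 bp in control 2. It was enriched 22.7-fold under siRNA-1 and 17.4-fold under siRNA-2, against 8.20-fold in control 1 and 8.76-fold in control 2. Between this region and the 3′ part of the gene, the siRNA-1 library alone called 4 more regions, with fold enrichments of 3.52 to 6.49. No other library had a peak in those 4 regions.

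In the 3′ part of PADI1 lay the strongest region of the controls (17556705 to 17566781). It covered 9805 bp under siRNA-1 and 9788 bp under siRNA-2, against 8464 bp in control 1 and 8438 bp in control 2. Fold enrichments were 82.6 under siRNA-1 and 73.7 under siRNA-2, against 62.2 in control 1 and 61.6 in control 2. At this region the controls' summits lay 4 bp apart and those of the knockdown libraries 588 bp apart. The last gained region (17555546 to 17556444) was just before it, 260 bp away, with fold enrichments of 6.13 under siRNA-1 and 6.27 under siRNA-2 and summits 113 bp apart. A region before that (17552939 to 17554121) was called in 3 libraries, over 765 bp under siRNA-1 and 1183 bp under siRNA-2, against 274 bp in control 2 and no call in control 1.

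PADI3 had peaks at or near its 5′ edge in every library. Under siRNA-2 the edge lay within a peak of 3438 bp. Under siRNA-1 it lay within a separate peak of 243 bp (17575771 to 17576013) with a fold enrichment of 5.20, and the main peak there (17576131 to 17579077) began inside the gene. In the controls the nearest peak began 0.43 kb into the gene in control 1 and 0.31 kb in control 2, distances under the rounding of the edge to 1 kb, so whether the start itself was under a peak cannot be told apart between the libraries. The region at the start (17575628 to 17579077) covered 3190 bp under siRNA-1 and 3438 bp under siRNA-2, against 1933 bp in control 1 and 1847 bp in control 2. Its fold enrichments were 22.9 under siRNA-1 and 32.6 under siRNA-2, against 8.49 in control 1 and 9.85 in control 2. By −log10 q it stood at percentile 83.6 of the siRNA-1 list and 93.0 of the siRNA-2 list, against 58.7 of control 1 and 64.7 of control 2. The groups were apart in all of these measures, as were 26.9% of all kept regions in greater length and 29.5% in higher fold enrichment after knockdown.

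In the 3′ part of PADI3 the siRNAs stood apart from each other in fold enrichment. A kept region there (17602053 to 17605315) covered 2661 bp under siRNA-1 and 3196 bp under siRNA-2, against 2479 bp in control 1 and 1795 bp in control 2. Fold enrichments were 9.38 under siRNA-1 and 18.0 under siRNA-2, against 7.18 in control 1 and 6.57 in control 2, so siRNA-1 stood close to the controls. Over the whole gene body PADI3 had 6.46 kb under peaks under siRNA-1 and 7.96 kb under siRNA-2, against 5.10 kb in control 1 and 3.64 kb in control 2. These average 7.21 ± 1.06 kb after knockdown and 4.37 ± 1.03 kb in controls (SD, n = 2 each). PADI3 had 0 gained regions, so its added length came from regions that a control also had and from 1 region called under siRNA-2 alone.

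Past the 3′ edge of PADI3, a kept region between PADI3 and PADI4 went the other way with 1 siRNA (17612530 to 17616925). It covered 2435 bp under siRNA-1 and 3960 bp under siRNA-2, against 3981 bp in control 1 and 3931 bp in control 2. Fold enrichments were 10.1 under siRNA-1 and 29.4 under siRNA-2, against 34.1 in control 1 and 29.1 in control 2. The siRNA-2 library lay within the range of the controls and the siRNA-1 library below it in both measures.

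PADI4 showed little acetylation in any library, and no separation of the groups. The nearest peak to its 5′ edge was 18.7 kb away under siRNA-1 and 18.1 kb under siRNA-2, against 18.2 kb in control 1 and 18.5 kb in control 2. Its single region (17674407 to 17675670) lay in the gene body, 39.9 kb from the 5′ edge. It covered 1042 bp under siRNA-1 and 1014 bp under siRNA-2, against 989 bp in control 1 and 1014 bp in control 2. Fold enrichments were 5.73 under siRNA-1 and 9.01 under siRNA-2, against 8.20 in control 1 and 7.30 in control 2. From the end of PADI4 to the end of the window, on the side where PADI6 follows, no library had a peak.

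On the outer side of PADI2, towards SDHB, called length was shorter in both knockdown libraries than in both controls. The length under peaks before the PADI2 edge was 0.449 kb under siRNA-1 and 0.915 kb under siRNA-2, against 0.937 kb in control 1 and 1.25 kb in control 2. The kept region there (17379887 to 17380586) had fold enrichments of 7.93 under siRNA-1 and 6.97 under siRNA-2, against 9.51 in control 1 and 9.85 in control 2. Both knockdown fold enrichments were below both control values. Its best summit lay 65.7 kb from the 5′ edge of PADI2. A region beside it (17380793 to 17381313) had no call under siRNA-1. It covered 321 bp under siRNA-2, against 305 bp in control 1 and 521 bp in control 2. Without an annotation of hg19, neither region was assigned to a gene. The added acetylation of the window thus lay between the starts of PADI2 and PADI1 and over PADI1 and PADI3.

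**Figure D4:**
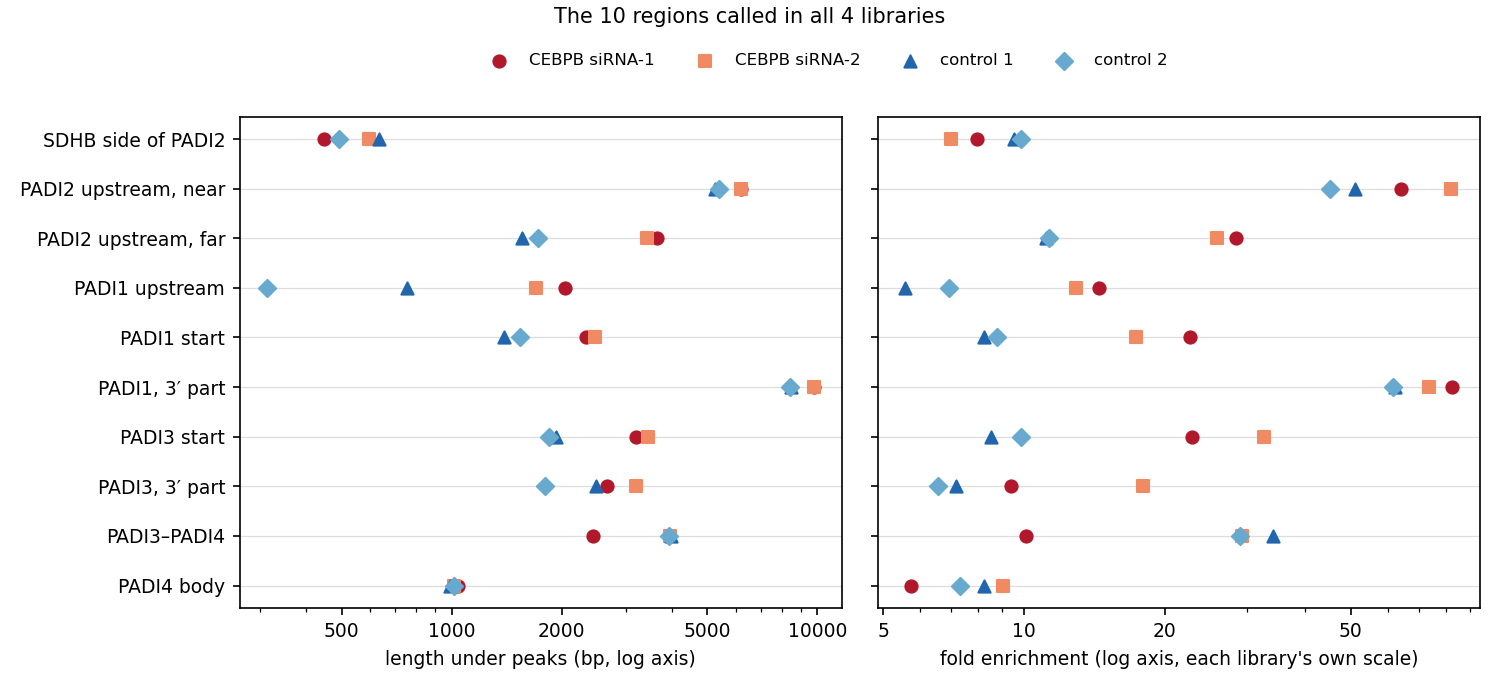
Length under peaks in bp (left) and fold enrichment at the best summit (right), both on log axes, for the 10 regions of the window called in all 4 libraries, with 1 marker per library. In 7 of the 10 regions both siRNA markers lie to the right of both controls for length. The region between PADI3 and PADI4 and the region towards SDHB show siRNA-1 alone to the left of both controls for length.

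Across the 10 kept regions, 7 were longer in both knockdown libraries than in both controls, where 26.9% of the 24133 kept regions of the genome were. None was shorter in both, where 25.6% of kept regions were. The median ratio of called length was 1.27 in the window and 1.01 over all kept regions. The same 7 regions had a higher fold enrichment in both knockdown libraries than in both controls, where 29.5% of the kept regions of the genome did. Both counts use the contrast that chose the window. The 3 others were those towards SDHB, between PADI3 and PADI4, and in PADI4.

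The added length was divided almost evenly among kinds of region. Of the 22.6 kb between the group means, gained regions gave 7.70 kb, kept regions 7.82 kb and the remaining regions 7.08 kb. In the remaining regions the siRNAs differed, with 10.4 kb under siRNA-1 peaks and 6.24 kb under siRNA-2 peaks, against 1.48 kb in control 1 and 1.03 kb in control 2. Counted by bases over the window, 23.0 kb was called in all 4 libraries, 14.5 kb with both siRNAs and in neither control, and 0.123 kb in both controls and with neither siRNA. The siRNA-1 library alone called 10.6 kb and the siRNA-2 library alone 4.09 kb.

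In 4 of the 6 gained regions, 66.7%, the best summits of the knockdown libraries lay within 250 bp of each other, against 79.9% of the 4103 gained regions of the genome. The median distance was 69 bp in the window and 95 bp over all gained regions. In the kept regions of the window the median distance was 82.5 bp between the siRNAs and 50 bp between the controls, beside 73 bp and 69 bp over all kept regions.

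Gained regions of the window were weaker than its kept regions in the same library. The definitions favour this, since a kept region had to be called in all 4 libraries and a gained region in neither control. The median fold enrichment of the gained regions was 6.13 under siRNA-1 and 6.19 under siRNA-2, and that of the kept regions 18.6 under siRNA-1 and 21.9 under siRNA-2. Over the genome, gained regions had medians of 5.49 under siRNA-1 and 5.17 under siRNA-2, and kept regions 12.3 under siRNA-1 and 11.8 under siRNA-2. The count of gained regions moved with how a region was defined. It was 1 where a −log10 q of 10 or more was required in both knockdown libraries, and 3 where each list was cut to the same called length or where peaks within 1 kb were joined. The difference in called length was 15.7 kb with peaks of a −log10 q of 10 or more and 19.2 kb at equal called length per list.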

How the data were processed

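H3K27ac immunoprecipitates of A549 cells were read from one end over 101 bases, per the labels' protocols. The submitters' processing notes name BWA 0.7.17, SAMtools 1.7.0, MACS2 2.2.7.1 and build hg19, with options not given in the sources used here. The authors deposited 1 peak list per library, with replicates not pooled. Each deposited peak carries its fold enrichment as a linear ratio, the −log10 of its p and q, and a score that follows the −log10 q. The input libraries were not used here.

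Peaks of chromosomes 1 to 22 and X were joined into regions where they overlapped by 1 bp or more (Python 3.11.15, pandas 2.3.3). Merging and calling were checked on simulated lists, made from the control 1 list with planted gained and lost regions. Apart from the planted regions, those lists differed only by small shifts. The check therefore covers the code and not variation between libraries. The gene edges are given to 1 kb. The plan was to name every gained and lost region and, in each gene, the kept region with the highest fold enrichment. The other kept regions, and some regions that were neither gained, lost nor kept, were named beyond that plan. No annotation of hg19 was used, so other genes of citrullination, the cell line's markers and sequences under summits were not analysed here. Members and lists were chosen with earlier results of these data known. Alternatives were another −log10 q threshold, joining distance, unit and called length, each library left out, and 2 settings added after seeing the data.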

Additional observations from a re-analysis of the deposited data

How the results depend on the processing

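The direction of the called length and of the number of peaks, knockdown minus control, held under all alternatives run. The alternatives reuse the lists from which the window was chosen for its gain, so they are no independent check of that direction. Gained regions numbered 6 as reported, 2 with only peaks of a −log10 q of 10 or more, 1 with that threshold where a call was needed, 3 with peaks joined within 1 kb and 3 at equal called length (61.68 Mb per list). The threshold, the joining and the equal length leave fewer peaks or units by construction. With 500 bp windows around summits, lost regions numbered 1 and kept regions 5, and the cause was not tested. Leaving out each library gave 7 to 16 gained, 0 to 1 lost and 10 to 12 kept regions. It gave differences of 20.6 to 24.6 kb in called length and 15.5 to 17.5 in peaks.

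The difference in called length, 22.6 kb as reported, was 15.7 kb with a −log10 q of 10 or more and 19.2 kb at equal called length. The difference in peaks, 16.5 as reported, was 5.5 with that threshold and 10.0 at equal length. At equal length the siRNA-1 list had 18 peaks in the window and the siRNA-2 list, the shortest and so left whole, had 31, against 14 in control 1 and 15 in control 2, so the mean rests mainly on siRNA-2. No paired analysis was possible because no result comes from a test, and only differences within the label numbers can be given as values. The difference in called length was 23.9 kb within number 1 and 21.3 kb within number 2. The difference in peaks was 18 within number 1 of the labels and 15 within number 2. Cutting the window to the span of the genes left 6 gained regions, and requiring no control peak within 1 kb left 4. Both settings were chosen after seeing the data. Widening the genes by 5 kb changed no count of gained regions per gene. Without read counts, an absent peak shows only an absent call.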
